A study of Mus musculus with 10 samples.

Results

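The genes of the spindle, the kinetochore and the spindle checkpoint were followed in germinal vesicle (GV) oocytes of mice that had lost Setdb1 in the growing oocyte. The 36 genes form a list of names that was drawn up with earlier results of these data known. All 36 were found in a table of 24453 gene symbols and passed the filter on low values. They comprise 5 genes of the chromosomal passenger complex, 8 of the spindle checkpoint, 7 of the outer kinetochore, 7 of the centromere, 3 motors and depolymerases, and 6 genes of spindle assembly and spindle poles. GV oocytes are fully grown oocytes held in prophase of the first meiotic division, before any spindle has formed, and the marker genes of oocytes were high in all libraries.

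Setdb1 encodes a histone methyltransferase, and the study asked what oocytes need it for in meiosis. The mutant group was Setdb1 f/-; Zp3-cre (4 mice), with 1 conditional (f) and 1 null (-) allele and a Cre that the Zp3 promoter drives in growing oocytes. The controls were Setdb1 f/+; Zp3-cre (4 mice), which carry Cre and keep a wild-type allele, and Setdb1 f/- (2 mice), which have the mutants' alleles and no Cre. All mice were C57Bl/6J, all oocytes were collected in medium with milrinone, an inhibitor that keeps them in prophase, and each library came from 16 oocytes of 1 mouse, freed of their surrounding cells. Replicates are therefore separate mice. Because oocytes were pooled, a lower value cannot be told apart as less RNA in each oocyte or as fewer oocytes with the RNA. The sources used here do not give the age of the mice.

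The spindle is the array of microtubules that moves chromosomes, and the kinetochore is the protein assembly that ties each chromosome's centromere to it. The spindle checkpoint holds cells before anaphase until kinetochores are attached, and the chromosomal passenger complex corrects wrong attachments. A full-grown mouse oocyte makes almost no new RNA once it resumes meiosis and builds its spindle without centrioles, from transcripts and proteins stored during growth, so the levels measured here are those of the store.

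Many genes of this kind carry a pair of short motifs in their promoters that are known from dividing somatic cells: the cell cycle gene homology region (CHR, searched as TTTGAA on both strands) and the CCAAT box (searched as CCAAT on both strands). In RefSeq promoters of GRCm38.p6, which run from 250 bases before to 50 bases after the start site, 31 of the 36 genes had an entry. The CHR letters were present for 14 of the 31 (45.2%) and for 17.9% of all 32851 promoters of that length, and the CCAAT letters for 17 (54.8%) and 37.4%. Both were present for 10 of the 31 (32.3%) and for 6.95% of all promoters. CpG sites numbered 21 in the median over the 31 genes and 7 in the median over all promoters. For a gene with several promoters, a match in any of them and the highest CpG count were taken, whereas the background counts each promoter singly. The background was not matched to the 31 genes by level or by CpG sites. The 4 promoters below belong to the 3 genes with an entry that passed a test against some control group (Fam83d, Cenpt and Nuf2) and to Bub1b, the most abundant of the 36. Each is written 5′ to 3′ on the strand of its gene, with CHR and CCAAT matches of either orientation in capitals. They lie at chr2:158767849-158768148 on the plus strand (Fam83d), chr8:105851959-105852258 on the minus strand (Cenpt), chr1:169531415-169531714 on the minus strand (Nuf2) and chr2:118597961-118598260 on the plus strand (Bub1b).
Fam83d: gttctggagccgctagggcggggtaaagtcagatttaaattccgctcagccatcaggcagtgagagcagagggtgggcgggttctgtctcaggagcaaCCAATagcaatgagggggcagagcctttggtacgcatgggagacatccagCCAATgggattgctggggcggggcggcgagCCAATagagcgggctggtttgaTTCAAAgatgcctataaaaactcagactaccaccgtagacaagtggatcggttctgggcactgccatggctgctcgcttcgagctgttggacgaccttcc
Cenpt: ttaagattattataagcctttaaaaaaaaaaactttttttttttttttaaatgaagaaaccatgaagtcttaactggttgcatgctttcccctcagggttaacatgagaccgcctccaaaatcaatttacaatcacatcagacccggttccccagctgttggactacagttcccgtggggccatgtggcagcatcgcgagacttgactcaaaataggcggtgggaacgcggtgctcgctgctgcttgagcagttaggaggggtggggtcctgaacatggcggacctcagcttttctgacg
Nuf2: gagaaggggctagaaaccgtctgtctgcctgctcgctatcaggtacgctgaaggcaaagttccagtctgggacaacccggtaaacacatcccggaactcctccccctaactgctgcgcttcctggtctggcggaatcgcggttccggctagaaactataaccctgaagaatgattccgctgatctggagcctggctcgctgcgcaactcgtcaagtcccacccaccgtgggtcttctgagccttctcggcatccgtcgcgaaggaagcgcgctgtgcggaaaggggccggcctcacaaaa
Bub1b: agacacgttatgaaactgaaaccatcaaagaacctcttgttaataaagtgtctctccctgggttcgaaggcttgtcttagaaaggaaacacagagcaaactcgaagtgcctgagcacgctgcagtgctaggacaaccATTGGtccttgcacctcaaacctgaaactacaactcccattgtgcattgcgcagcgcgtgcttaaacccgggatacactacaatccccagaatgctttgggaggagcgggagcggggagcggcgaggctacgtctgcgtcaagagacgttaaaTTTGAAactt

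The Fam83d promoter holds 3 CCAAT matches, at positions -152, -102 and -72 relative to the start site, and 1 CHR match in reverse orientation at -50. The Bub1b promoter holds 1 CCAAT match in reverse orientation at -113 and 1 CHR match at position 40 after the start. Neither set of letters is in the Cenpt or Nuf2 window, and no match overlaps another in these 4 sequences. The windows of Fam83d, Cenpt, Nuf2 and Bub1b hold 14, 11, 23 and 15 CpG sites. A match here describes letters only, and binding was not measured.

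Setdb1 itself checked the labels. The exon that Cre removes is not stated in the sources, and the value of the whole transcript may include parts that were not deleted. Its level was 4.06, 2.55, 3.32 and 1.31 RPKM in mutant replicates 1 to 4. The f/+; Zp3-cre replicates had 28.6, 25.7, 25.1 and 52.5 RPKM and the f/- replicates 19.9 and 26.3 RPKM. RPKM scale the reads of a transcript by its length and by the size of the library. The groups did not overlap, with a difference of -3.20 in mean log2(RPKM + 0.5) and an exact two-sided permutation p of 0.0048, the smallest that 210 splits allow. The steps between low values put the libraries at roughly 45.7e6 to 72.7e6 reads, and in the shallowest 10 reads of a 2 kb transcript give 0.109 RPKM. The 10 oocyte markers summed to 5554 to 5624 RPKM in mutant oocytes and 5515 to 7154 in controls, and none passed against all controls. Of 8 genes of cycling somatic cells, which share many of the genes described here, the summed level was 153 to 178 RPKM in mutant oocytes and 140 to 164 in controls. None of those 8 passed by limma, with 3 higher at an unadjusted p below 0.05. Of 12 granulosa and cumulus markers, 5 were tested and none passed by limma. Among those 5 the change was positive for 4 and negative for 1, with 1 higher at an unadjusted p below 0.05. The 12 summed to 10.6 to 16.2 RPKM in mutant oocytes and 6.60 to 12.5 in controls. Foxl2, a defining factor of granulosa cells, was at 0 in 3 of 4 mutants and at 0.371 RPKM in mutant replicate 3, against at most 0.0173 RPKM in controls. The sum of the 12 markers did not set that library apart, at 13.9, 16.2, 13.4 and 10.6 RPKM in mutant replicates 1 to 4. The 8 markers of blood, immune and endothelial cells summed to 22.0 to 42.7 RPKM in mutants, against 29.9 to 46.8 in controls. The part of such cells in the results was not tested.

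As a group, these genes were abundant and steady. In controls, 33 of the 36 lay above the 50th percentile of all 11338 tested genes and 11 above the 90th, with a median percentile of 84.7. The 3 below the 50th percentile were Cenpt (46.2), Fam83d (39.5) and Cenpb (5.12). The median SD between libraries on the log2 scale was 0.24 for the 36 genes and 0.39 for all tested genes in mutants, 0.14 and 0.19 in f/+; Zp3-cre, and 0.25 and 0.39 in f/-. The spread was not adjusted for the high level of these genes.

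**Figure D1:**
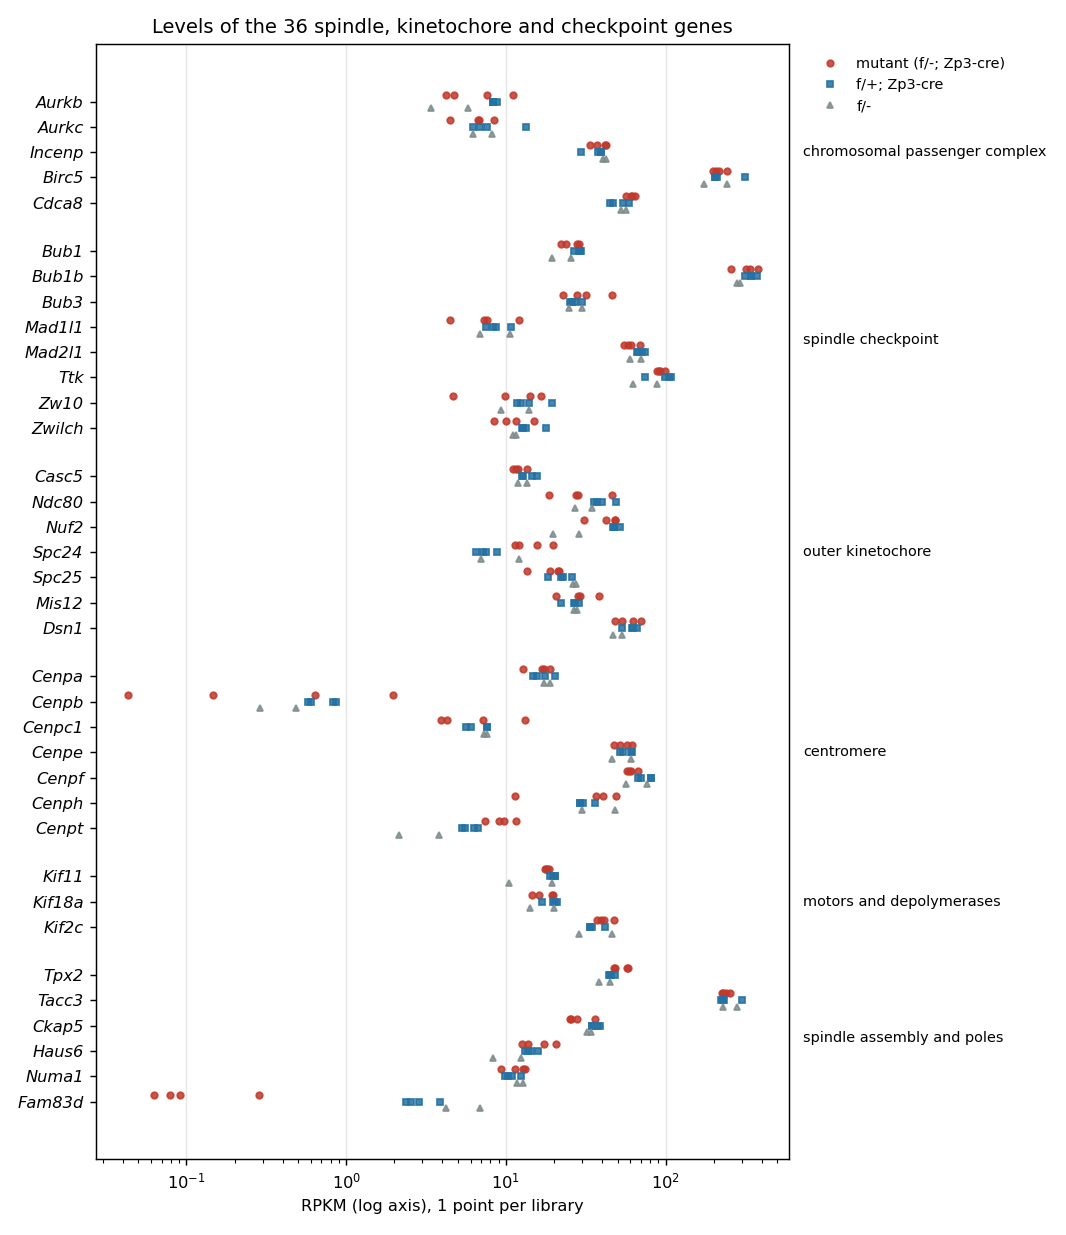
RPKM (log axis) of the 36 genes by role, 1 point per library, with mutants in red, f/+; Zp3-cre in blue and f/- in grey. Mutants overlap the pooled controls for 34 of the 36 genes, and 8.18% of all tested genes do not overlap. Fam83d lies below, with 0.063 to 0.284 RPKM in mutants against 2.36 to 6.84 in controls. Cenpt lies above, with 7.37 to 11.5 RPKM in mutants against 2.14 to 6.70 in controls.

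The first comparison asked which of these stored transcripts differ in oocytes without Setdb1. Of 36 genes, Spc24 rose, Fam83d fell and 34 did not pass (limma, adjusted p below 0.05 over all 11338 tested genes). Of all tested genes 3.10% were called higher and 2.22% lower, 5.33% in all, so the share among the 36 is near the background. Rescaling the libraries moved that background from 352 higher and 252 lower genes to 303 and 339 with median centring, and to 322 and 337 with quantile normalization. The median log2 change was -0.05 over the 36 genes and 0.03 over all tested genes. Of the 36 changes 14 were positive and 22 negative, against 5971 and 5367 of all tested genes. At an unadjusted p below 0.05, 3 were higher (Spc24, Cenpt and Tpx2) and 3 lower (Fam83d, Ckap5 and Spc25), against 11.1% and 8.63% of all tested genes.

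For most of the 34 genes that did not pass, the data limit how large a change could be. The 95% interval of the log2 change lay within -1 to 1, a 2-fold change either way, for 32 of the 34, and for 61.6% of all tested genes that did not pass. The exceptions were Cenpb (-1.002 to 0.74) and Cenpt (0.32 to 1.51). The change was below 0.5 in size on the log2 scale for 33 of the 34.

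**Figure D2:**
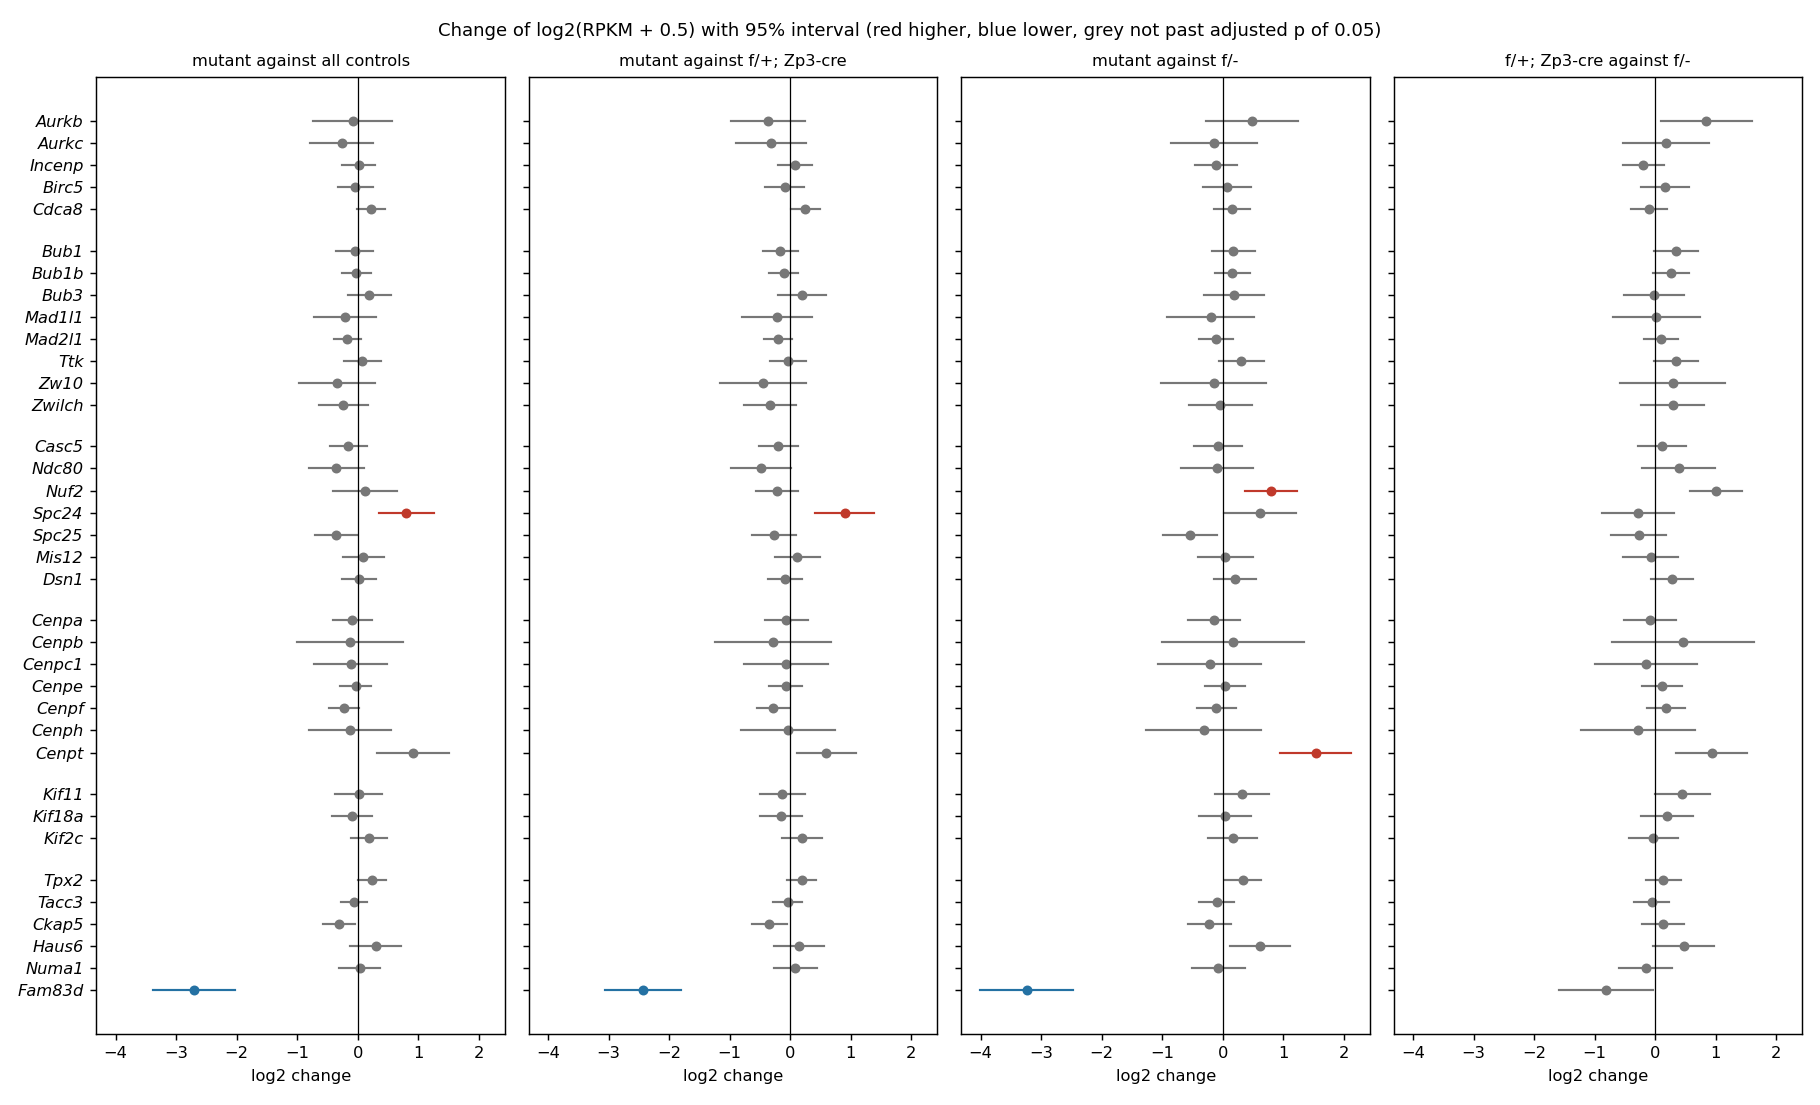
Change of log2(RPKM + 0.5) with its 95% interval for each of the 36 genes in 4 comparisons, ordered by role. Red and blue mark genes that passed as higher and lower (limma, adjusted p below 0.05). Fam83d is the 1 gene left of zero and past the test in all 3 mutant comparisons, and grey intervals cross or approach zero for nearly all others.

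The change with the smallest p was in Fam83d, which encodes a spindle protein that, in human cells, brings the kinase CK1 alpha to the spindle and helps chromosomes to align. Fam83d was named in the list although its fall in these libraries was already known, so its call is no independent support for a change of the spindle genes. Mutant replicates 1 to 4 had 0.0794, 0.063, 0.284 and 0.0906 RPKM. The f/+; Zp3-cre replicates had 2.87, 2.36, 3.87 and 2.53 RPKM, and the f/- replicates 4.23 and 6.84. All 4 mutant values lay below all 6 control values, and the mutant mean was 3.41% of the control mean. Fam83d fell by 2.70 ± 0.32 on the log2(RPKM + 0.5) scale (SE, limma adjusted p = 0.00015, 95% interval -3.38 to -2.02), a scale that understates the change of so low a gene.

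The Fam83d values in mutants rest on few reads. On its transcript of 2266 bases they correspond to roughly 11, 8.05, 35.1 and 12.1 reads, against 356 to 496 in f/+; Zp3-cre and 438 and 1130 in f/-. The call held in all 21 alternative settings of the analysis, with limma adjusted p between 2.26e-05 and 0.0020. Fam83d passed the filter on low values through the controls, with a mean of 0.129 RPKM in mutants and 3.78 in controls. With no filter it was also called lower (limma adjusted p = 0.0020). Fam83d lies on chromosome 2 from 158768093 to 158786637 (GENCODE M21, GRCm38, plus strand) and shares exons with no other annotated gene. Its neighbours on both sides were low in all groups. Ppp1r16b, 1759 bases away, had 0.0696 ± 0.136 RPKM in mutant oocytes and 0.0274 ± 0.0354 in controls (SD, n = 4 and 6) and fell under the filter. Dhx35, 8170 bases away on the other side, had 1.39 ± 0.712 RPKM in mutant oocytes and 0.928 ± 0.452 in controls, and its log2 change of 0.41 ± 0.36 did not pass (limma adjusted p = 0.57).

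**Figure D3:**
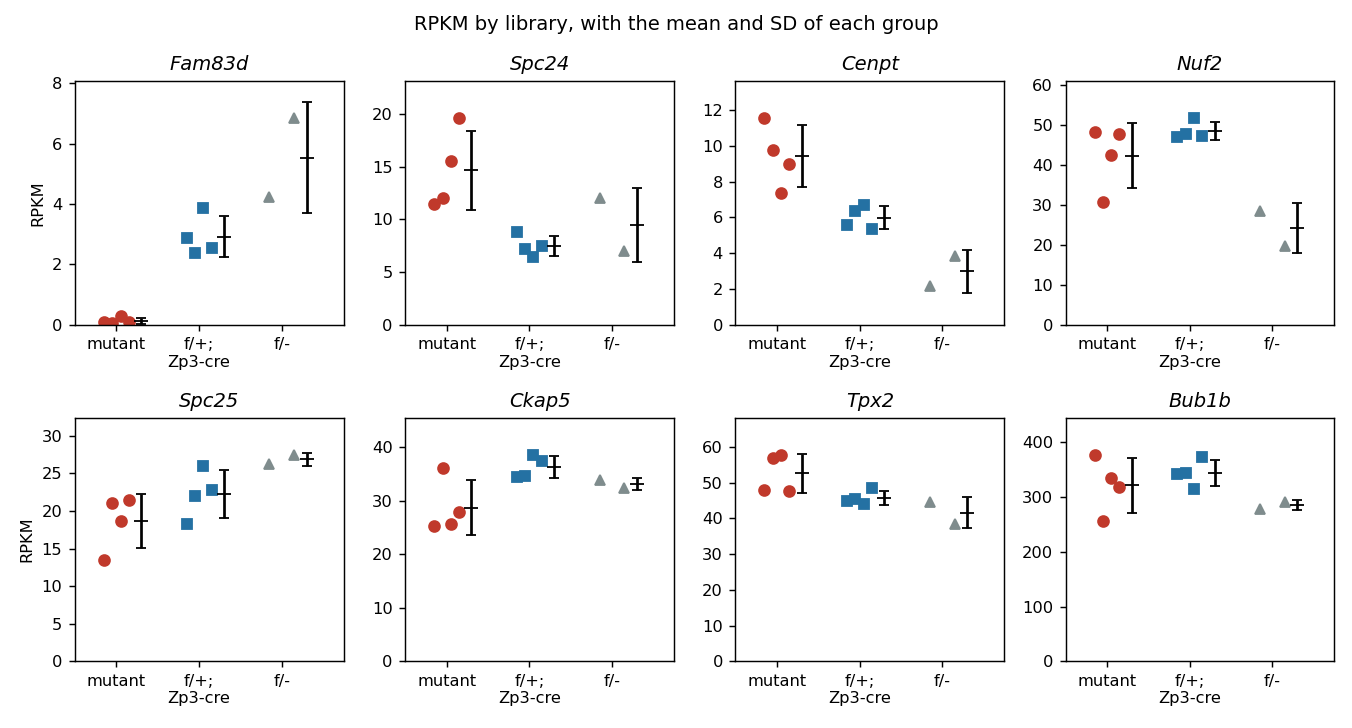
RPKM by library for 8 genes, with the mean and SD of each group beside the points and mutants on the left. Fam83d is near 0 in all 4 mutants, Cenpt is above all controls in mutants and Spc24 above all but f/- replicate 1, Nuf2 is low in the 2 f/- libraries, and Spc25, Ckap5, Tpx2 and Bub1b overlap or nearly overlap between mutants and controls.

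The outer kinetochore genes encode the proteins that hold microtubule ends. Ndc80, Nuf2, Spc24 and Spc25 form the 4-part NDC80 complex, in which Ndc80 and Nuf2 reach the microtubule while Spc24 and Spc25 anchor the complex at the kinetochore. Mis12 and Dsn1 belong to the MIS12 complex that receives it, and Casc5, now called Knl1, is the scaffold that recruits checkpoint proteins. Of these 7 genes 1 rose, none fell and 6 did not pass (limma), with 1 higher and 1 lower at an unadjusted p below 0.05.

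Spc24 was the gene that rose. It had 11.47, 12.01, 15.58 and 19.61 RPKM in mutant replicates 1 to 4. The f/+; Zp3-cre replicates had 8.82, 7.20, 6.45 and 7.46 RPKM, and the f/- replicates 11.99 and 6.96. All mutants lay above all f/+; Zp3-cre libraries, whereas f/- replicate 1 lay between the mutants, so the groups overlapped. Spc24 averaged 14.7 ± 3.77 RPKM in mutant oocytes and 8.15 ± 2.04 in controls (SD, n = 4 and 6), a log2 change of 0.81 ± 0.21 (SE, limma adjusted p = 0.040). The call lies close to the threshold. It was lost without mutant replicate 3 or 4 (limma adjusted p = 0.10 and 0.12) and without f/+; Zp3-cre replicate 1, 2, 3 or 4 (0.069, 0.088, 0.078 and 0.088). It was also lost with quantile normalization (limma adjusted p = 0.053), with no filter (0.078), with no trend (0.058) and with a replicate block (0.082). The log2 change stayed between 0.66 and 0.92 on leaving out single libraries.

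Its partner Spc25 did not pass. Spc25 had 13.6, 21.1, 18.7 and 21.4 RPKM in mutant replicates 1 to 4, against 18.3, 22.1, 26.0 and 22.8 in f/+; Zp3-cre and 26.3 and 27.5 in f/-. The mutants overlapped the f/+; Zp3-cre libraries and lay below both f/- libraries, and the log2 change of -0.35 ± 0.16 did not pass (limma adjusted p = 0.25). The ratio of the Spc24 to the Spc25 level, formed after the values were seen and given with no test, was 0.846, 0.570, 0.831 and 0.915 in mutants. It was 0.481, 0.327, 0.248 and 0.327 in f/+; Zp3-cre and 0.456 and 0.253 in f/-. The ratio of Spc24 to Ndc80 was 0.419 to 0.646 in mutants and 0.133 to 0.346 in controls, also without overlap. That of Spc24 to Nuf2 overlapped (0.238 to 0.410 in mutants and 0.125 to 0.420 in controls). These ratios reuse the Spc24 values that passed above, so they are no independent support for its rise.

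Ndc80 had 30.2 ± 11.6 RPKM in mutant oocytes and 37.2 ± 7.14 in controls (SD, n = 4 and 6), with a range of 18.6 to 46.2 among mutants. Nuf2 had 48.2, 30.8, 42.6 and 47.9 RPKM in mutants, 47.0, 47.8, 51.7 and 47.1 in f/+; Zp3-cre, and 28.6 and 19.8 in f/-. The f/- libraries are thus the low ones, and mutants and f/+; Zp3-cre overlapped. Dsn1, the most abundant gene of the outer kinetochore list, had 69.7, 53.1, 48.1 and 62.2 RPKM in mutants. Its controls had 61.7, 62.3, 66.4 and 53.6 RPKM in f/+; Zp3-cre and 53.3 and 46.8 in f/-. Mis12 averaged 29.0 ± 7.17 RPKM in mutant oocytes and 26.5 ± 2.32 in controls, and Casc5 12.03 ± 1.06 and 13.5 ± 1.38. None of these 5 passed against all controls (limma adjusted p between 0.40 and 0.96).

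The centromere genes cover the base of the kinetochore. Cenpa encodes the histone H3 variant that marks centromeres, Cenpb a protein that binds a centromeric repeat, and Cenpc1, Cenph and Cenpt members of the constitutive network that links this chromatin to the outer kinetochore. Cenpe is a kinetochore motor and Cenpf a large coat protein of the kinetochore. None of the 7 passed against all controls (limma), with 1 higher at an unadjusted p below 0.05, and 6 of the 7 changes were negative. Among all 11338 tested genes 5367 changes were negative.

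Cenpt was the 1 of the 36 whose mutant values all lay above all control values, and Fam83d the 1 with all below, which held for 4.62% and 3.56% of all tested genes, 8.18% in all. Cenpt, which docks NDC80 complexes directly, had 11.5, 9.78, 7.37 and 8.99 RPKM in mutants. The f/+; Zp3-cre replicates had 5.57, 6.33, 6.70 and 5.33 RPKM, and the f/- replicates 2.14 and 3.82. Its log2 change of 0.91 ± 0.28 (SE) did not pass (unadjusted p = 0.0053, limma adjusted p = 0.077), and 20 of the 21 alternative settings gave the same side of the threshold. In the fit with 3 groups, in which both control groups weigh the same, Cenpt passed (limma adjusted p = 0.0099). Cenpt lies on chromosome 8 from 105844673 to 105853278, minus strand, where its exons overlap those of Tsnaxip1 on the opposite strand. The library kit kept no strand information, and Tsnaxip1 was at 0.0189 ± 0.0279 RPKM in mutant oocytes and 0.0346 ± 0.028 in controls.

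Cenpf, the most abundant centromere gene, had 61.0, 59.1, 67.3 and 57.4 RPKM in mutant oocytes, against 70.2, 66.7, 81.2 and 80.9 in f/+; Zp3-cre and 76.4 and 56.5 in f/-. Mutants lay at the low end of the controls and overlapped them through mutant replicate 3 and f/- replicate 2 (log2 change -0.22 ± 0.12, limma adjusted p = 0.32). Cenpe stood at 54.5 ± 6.09 RPKM in mutant oocytes and 55.9 ± 6.29 in controls, and Cenpa at 16.5 ± 2.63 and 17.4 ± 2.05. The mutants of Cenph, Cenpc1 and Cenpb spread widely. Cenph had 11.4 RPKM in mutant replicate 2 and 36.6 to 48.8 in the other mutants, against 29.1 to 47.9 in controls. Cenpc1 ranged over 3.93 to 13.1 RPKM in mutant oocytes and 5.63 to 7.67 in controls. Cenpb, the least abundant of the 36, ranged over 0.043 to 1.96 RPKM in mutant oocytes and 0.287 to 0.861 in controls.

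No spindle checkpoint gene passed the test. Bub1, Bub1b and Bub3 encode proteins that assemble on unattached kinetochores, Mad1l1 the anchor on which Mad2l1 becomes an inhibitor of the anaphase-promoting complex, and Ttk the kinase that starts the signal. Zw10 and Zwilch encode subunits of the RZZ complex, which brings the dynein motor and Mad1l1 to kinetochores. None of the 8 was called against all controls by limma, none had an unadjusted p below 0.05, and the changes lay between -0.34 and 0.19.

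Bub1b was the most abundant of all 36 genes, at percentile 99.6 of the tested genes. It had 376, 255, 335 and 317 RPKM in mutant oocytes, against 342, 343, 314 and 373 in f/+; Zp3-cre and 278 and 291 in f/-. Mutants spanned the range of both control groups, and the log2 change was -0.02 ± 0.11 (95% interval -0.26 to 0.23, limma adjusted p = 0.95). Ttk averaged 93.0 ± 4.40 RPKM in mutant oocytes and 89.6 ± 17.9 in controls (SD, n = 4 and 6), and Mad2l1 60.7 ± 6.17 and 68.1 ± 4.89. Bub3 averaged 32.0 ± 9.92 RPKM in mutant oocytes and 27.1 ± 2.23 in controls, with the highest value of 45.8 in mutant replicate 2. Bub1 stood at 25.5 ± 3.13 RPKM in mutant oocytes and 26.5 ± 3.77 in controls. The remaining checkpoint genes were lower: Zw10 at 11.3 ± 5.19 RPKM in mutant oocytes and 13.4 ± 3.36 in controls, Zwilch at 11.2 ± 2.86 and 13.2 ± 2.41, and Mad1l1 at 7.87 ± 3.16 and 8.80 ± 1.58.

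The chromosomal passenger complex consists of an Aurora kinase with Incenp, Birc5 (survivin) and Cdca8 (borealin). Mouse oocytes use Aurkc as well as Aurkb, and Aurkc is largely restricted to germ cells. None of the 5 genes passed against all controls (limma), and none had an unadjusted p below 0.05. Birc5 had 243, 216, 207 and 198 RPKM in mutant oocytes, against 203, 203, 315 and 211 in f/+; Zp3-cre and 242 and 173 in f/-. The mutants lay within the range of the controls, whose highest value was f/+; Zp3-cre replicate 3 and lowest f/- replicate 2 (log2 change -0.04 ± 0.14, limma adjusted p = 0.92). Cdca8 stood at 60.8 ± 3.13 RPKM in mutant oocytes and 52.4 ± 5.51 in controls (log2 change 0.22 ± 0.11, limma adjusted p = 0.28), and Incenp at 38.8 ± 4.12 and 38.3 ± 4.61. The kinases were the low part of the complex. Aurkb had 6.89 ± 3.13 RPKM in mutant oocytes and 7.14 ± 2.13 in controls, and Aurkc 6.60 ± 1.65 and 8.11 ± 2.72. The ratio of Aurkc to Aurkb was 0.618 to 2.00 in mutants and 0.752 to 1.85 in controls, so neither kinase was the higher one in every library.

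The 3 motors and depolymerases showed no difference past the test (limma adjusted p between 0.50 and 0.97). Kif11 slides antiparallel microtubules apart and keeps the spindle bipolar, Kif18a limits the swing of chromosomes at the spindle's centre, and Kif2c removes tubulin from wrongly attached microtubule ends. Kif2c had 39.4, 47.4, 41.0 and 36.9 RPKM in mutant oocytes, against 34.6, 33.8, 41.4 and 33.5 in f/+; Zp3-cre and 46.2 and 28.7 in f/-. Mutants lay within the range of the f/- pair except for replicate 2 and overlapped f/+; Zp3-cre through its replicate 3. Kif11 was close to constant among mutants, at 18.0 ± 0.354 RPKM, against 18.2 ± 3.80 in controls, where f/- replicate 2 had 10.5. Kif18a stood at 17.5 ± 2.59 RPKM in mutant oocytes and 18.6 ± 2.59 in controls.

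The remaining genes act in spindle assembly and at spindle poles. Tpx2 starts microtubule growth near chromosomes, Tacc3 and Ckap5 act together in stabilising microtubules, Haus6 belongs to the augmin complex that branches them, and Numa1 focuses the poles. Besides Fam83d, none of these passed against all controls, and Tpx2 was higher and Ckap5 lower at an unadjusted p below 0.05. Tpx2 had 48.0, 56.9, 57.7 and 47.8 RPKM in mutant oocytes, against 44.8, 45.4, 44.1 and 48.5 in f/+; Zp3-cre and 44.6 and 38.4 in f/-. Of the controls only f/+; Zp3-cre replicate 4 reached the mutants' range (log2 change 0.24 ± 0.11, limma adjusted p = 0.22). Ckap5 had 25.2, 36.1, 25.6 and 27.9 RPKM in mutant oocytes, against 34.4, 34.6, 38.6 and 37.5 in f/+; Zp3-cre and 34.0 and 32.3 in f/-. Its mutants lay below all controls except for replicate 2, which lay among them (log2 change -0.30 ± 0.13, limma adjusted p = 0.19).

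Tacc3 was the most abundant of the spindle assembly genes. It had 226, 230, 252 and 237 RPKM in mutant oocytes, against 228, 222, 300 and 230 in f/+; Zp3-cre and 279 and 229 in f/-. The groups overlapped (log2 change -0.06 ± 0.10, 95% interval -0.28 to 0.15, limma adjusted p = 0.78). Haus6 averaged 16.1 ± 3.57 RPKM in mutant oocytes and 13.0 ± 2.60 in controls, and Numa1 11.7 ± 1.75 and 11.3 ± 1.17.

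Summed by role, the store of these transcripts overlapped between mutants and controls for every role. Such sums weigh the abundant genes most, such as Birc5 with 198 to 243 RPKM in mutants. A change of a low gene such as Fam83d hardly shows in them. The passenger complex genes summed to 306 to 355 RPKM in mutant oocytes and 282 to 431 in controls, and the checkpoint genes to 518 to 621 and 487 to 641. The outer kinetochore genes summed to 168 to 240 RPKM in mutant oocytes and 169 to 237 in controls, and the centromere genes to 159 to 203 and 163 to 212. The motors summed to 69.1 to 84.9 RPKM in mutant oocytes and 59.2 to 82.0 in controls, and the spindle assembly genes to 324 to 362 and 327 to 413. The top of the control range for the passenger complex, outer kinetochore, motors and spindle assembly came from f/+; Zp3-cre replicate 3, which was the highest of its group of 4 for 19 of the 36 genes.

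The controls were next taken apart, because f/+; Zp3-cre shares Cre with the mutants and f/- shares their alleles. Both comparisons use the same 4 mutant libraries and overlap with the first one, so they are not independent of it. Against f/+; Zp3-cre, Spc24 rose (log2 change 0.90 ± 0.22, limma adjusted p = 0.038), Fam83d fell (-2.43 ± 0.29, 0.00041) and 34 genes did not pass, where 2.76% of all tested genes were called higher and 2.13% lower. This Spc24 call was lost without the same mutant replicates 3 or 4 (limma adjusted p = 0.088 and 0.087) and without f/+; Zp3-cre replicate 1, 2, 3 or 4 (0.077, 0.12, 0.10 and 0.11). Quantile normalization (limma adjusted p = 0.052), no filter (0.069), no trend (0.0605) and a replicate block (0.067) lost it as well. Without mutant replicate 2, the mutant that lay among the controls for Ckap5, this gene passed as lower as well (limma adjusted p = 0.039). All tested genes called then numbered 509. All tested genes called against f/+; Zp3-cre numbered 554 with all libraries, 257, 226, 355 and 248 without f/+; Zp3-cre replicate 1, 2, 3 and 4, and 904 and 905 without f/- replicate 1 and 2. All mutants lay above all f/+; Zp3-cre libraries for Spc24 and Cenpt and below them for Fam83d and Kif11, against 8.86% and 8.45% of all tested genes. At an unadjusted p below 0.05, 3 of the 36 were higher and 3 lower, against 10.3% and 8.92% of all tested genes. The median log2 change of the 36 genes was -0.10, with 10 positive and 26 negative values. Over all tested genes it was 5.2e-05, with 5671 positive and 5665 negative values.

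Against f/-, with only 2 libraries, Cenpt (log2 change 1.54 ± 0.27, limma adjusted p = 0.0077) and Nuf2 (0.80 ± 0.20, 0.038) rose, Fam83d fell (-3.24 ± 0.36, 0.00037) and 33 did not pass. Against f/+; Zp3-cre neither Cenpt (log2 change 0.60 ± 0.22, limma adjusted p = 0.16) nor Nuf2 (-0.21 ± 0.16, 0.52) passed, and Nuf2 had the opposite sign. Of all tested genes 3.25% were called higher and 1.59% lower against f/-, 4.84% in all. At an unadjusted p below 0.05, 5 of the 36 were higher and 2 lower, against 12.9% and 8.57% of all tested genes. Cenpt passed on leaving out any single library (limma adjusted p at most 0.024) and was lost with array weights (0.15). Nuf2 was lost without mutant replicate 1, 3 or 4 (limma adjusted p = 0.077, 0.071 and 0.066) and without f/+; Zp3-cre replicate 1, 2, 3 or 4 (0.068, 0.068, 0.054 and 0.069). With quantile normalization (limma adjusted p = 0.051), no filter (0.089), no trend (0.086), array weights (0.17) and a replicate block (0.0925) Nuf2 did not pass either. It was also lost without f/- replicate 2 (limma adjusted p = 0.21, log2 change 0.54). Without f/- replicate 1, which leaves a single f/- library that is assumed to vary like the other groups, Kif11 and Haus6 passed as higher as well (limma adjusted p = 0.017 and 0.048). All tested genes called in this comparison then numbered 1467, against 549 with all libraries. They numbered 283, 277 and 291 without f/+; Zp3-cre replicate 1, 2 and 4. Spc24 did not pass against f/- (log2 change 0.62 ± 0.27, limma adjusted p = 0.21), with a change of 0.99 (0.055) without f/- replicate 1 and 0.25 (0.68) without f/- replicate 2. Of the 10 oocyte markers, Zp1 was called lower against f/- (log2 change -0.45 ± 0.09, limma adjusted p = 0.019) and 4 were lower at an unadjusted p below 0.05. The oocyte markers summed to 5554 to 5624 RPKM in mutants, below the 6169 and 7154 of the f/- libraries. The blood, immune and endothelial markers summed to 22.0 to 42.7 RPKM in mutants, below the 45.4 and 46.8 of f/-, and the part of either difference in the results was not tested. Mutants lay above both f/- libraries for Cenpt, Nuf2, Tpx2 and Haus6 and below both for Fam83d and Spc25, against 13.7% and 9.18% of all tested genes. The median log2 change of the 36 genes was 0.04, beside 0.07 over all tested genes.

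The control groups were also compared with each other, f/+; Zp3-cre against f/-. None of the 36 genes passed (limma), where 0.0265% of all tested genes were called higher and 0.0441% lower. At an unadjusted p below 0.05, a level that 8.31% of all tested genes reached as higher and 5.66% as lower, Nuf2 (log2 change 1.01 ± 0.20, limma adjusted p = 0.076), Cenpt (0.94 ± 0.27, 0.17) and Aurkb (0.85 ± 0.35, 0.30) were higher and Fam83d (-0.81 ± 0.36, 0.33) lower in f/+; Zp3-cre. The f/+; Zp3-cre libraries lay above both f/- libraries for 11 of the 36 genes and below both for 3, against 18.3% and 11.3% of all tested genes. Nuf2 passed as higher in f/+; Zp3-cre without mutant replicate 2 (limma adjusted p = 0.034) or f/- replicate 1 (0.010), and Kif11 without f/- replicate 1 (0.014). All tested genes called between the control groups then numbered 23 and 840, against 8 with all libraries, and the 840 rest on a single f/- library. The level of Nuf2 in f/+; Zp3-cre was 48.4 ± 2.23 RPKM (SD, n = 4), against 24.2 ± 6.22 in f/- (n = 2).

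The other genes of the pathway were read from a list of 110, of which 103 were tested. Against all controls 3 rose, 4 fell and 96 did not pass (limma), where 3.10% and 2.22% of all tested genes did, and the median log2 change was 0.07. Of 21 other kinetochore and centromere genes, Kntc1 fell and 20 did not pass. Kntc1, which encodes the largest subunit of the RZZ complex beside Zw10 and Zwilch, had 6.34, 7.66, 6.997 and 5.41 RPKM in mutant oocytes, against 12.5, 12.1, 10.8 and 12.5 in f/+; Zp3-cre and 9.72 and 9.003 in f/-. All mutants lay below all controls (log2 change -0.71 ± 0.17, limma adjusted p = 0.029). The call was lost without mutant replicate 1, 3 or 4 (limma adjusted p = 0.067, 0.054 and 0.075) or without f/+; Zp3-cre replicate 1, 2, 3 or 4 (0.081, 0.079, 0.054 and 0.081). A replicate block lost the Kntc1 call as well (limma adjusted p = 0.089).

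Among 22 genes of microtubule nucleation and spindle poles, Nedd1 rose, Cenpj fell and 20 did not pass (limma). Nedd1, which brings the gamma-tubulin ring complex to the spindle, had 31.1, 44.5, 29.6 and 31.5 RPKM in mutant oocytes and 15.3 to 20.1 in the 6 controls. The groups did not overlap (log2 change 0.89 ± 0.14, limma adjusted p = 0.0019), and the call held in all 21 alternative settings. Nedd1 shares exon sequence on its own strand with Gm49783, so its reads may be shared. Cenpj, a protein of centriole growth, had 19.8 ± 3.72 RPKM in mutant oocytes and 28.2 ± 1.74 in controls (log2 change -0.52 ± 0.14, limma adjusted p = 0.048). It was lost on leaving out any single library except f/- replicate 2 (limma adjusted p = 0.055 to 0.10). No filter (limma adjusted p = 0.066), no trend (0.0955) and a replicate block (0.072) lost the Cenpj call as well.

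Among 13 other motor genes, Dynll1 rose and 12 did not pass (limma). Dynll1 encodes a light chain of dynein that has been found to bind the human Fam83d protein, and it had 49.4, 37.2, 45.9 and 43.9 RPKM in mutant oocytes and 24.3 to 38.8 in controls. Whether its reads also match other loci was not examined. Mutant replicate 2 lay below f/+; Zp3-cre replicate 3 (log2 change 0.55 ± 0.14, limma adjusted p = 0.040). The call was lost without mutant replicate 1, 3 or 4 (limma adjusted p = 0.11, 0.097 and 0.082) or f/+; Zp3-cre replicate 1, 2 or 4 (0.092, 0.088 and 0.092). Quantile normalization (limma adjusted p = 0.054), no filter (0.076), no trend (0.096) and a replicate block (0.079) lost the Dynll1 call as well. Of other reported partners of human Fam83d, only Hmmr and Kif22 were read here, and neither passed (limma). Hmmr had 2.61 ± 0.967 RPKM in mutant oocytes and 2.74 ± 0.809 in controls, and Kif22 46.5 ± 4.01 and 36.7 ± 7.68. The gene of CK1 alpha is not in the list.

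Of 13 tested tubulin genes, Tubb3 rose, Tuba3b fell and 11 did not pass (limma). Tubb3, a beta-tubulin best known from neurons, had 92.3 ± 8.46 RPKM in mutant oocytes and 60.9 ± 8.06 in controls (log2 change 0.60 ± 0.11, limma adjusted p = 0.0069), and passed in all 21 alternative settings. Tuba3b had 0.0468 ± 0.0299 RPKM in mutant oocytes and 2.57 ± 1.504 in controls, with 0.123 in f/- replicate 2 (log2 change -2.25 ± 0.48, limma adjusted p = 0.016). It passed the filter on low values through the controls, and the call was lost with no filter (limma adjusted p = 0.065). Its near-identical copy Tuba3a had 38.9 ± 4.09 RPKM in mutant oocytes and 32.9 ± 4.12 in controls, so how reads were split between the copies makes the Tuba3b value uncertain. Of 16 microtubule-binding proteins, Mapre3, an end-binding protein, fell to 1.55 ± 1.54 RPKM in mutant oocytes, against 5.26 ± 2.00 in controls (log2 change -1.74 ± 0.44, limma adjusted p = 0.034), and 15 did not pass. Mapre3 was lost without mutant replicate 1 or 4 (limma adjusted p = 0.10 and 0.099), f/+; Zp3-cre replicate 1, 3 or 4 (0.067, 0.060 and 0.072) or f/- replicate 1 or 2 (0.057 and 0.051). No filter (limma adjusted p = 0.11), no trend (0.055) and a replicate block (0.0502) lost the Mapre3 call as well. None of 18 genes of anaphase control and cohesion protection passed, and none had an unadjusted p below 0.05. The smallest p among them was that of Mad2l2 (38.4 ± 13.7 RPKM in mutant oocytes and 26.6 ± 10.3 in controls, limma adjusted p = 0.28).

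**Figure D4:**
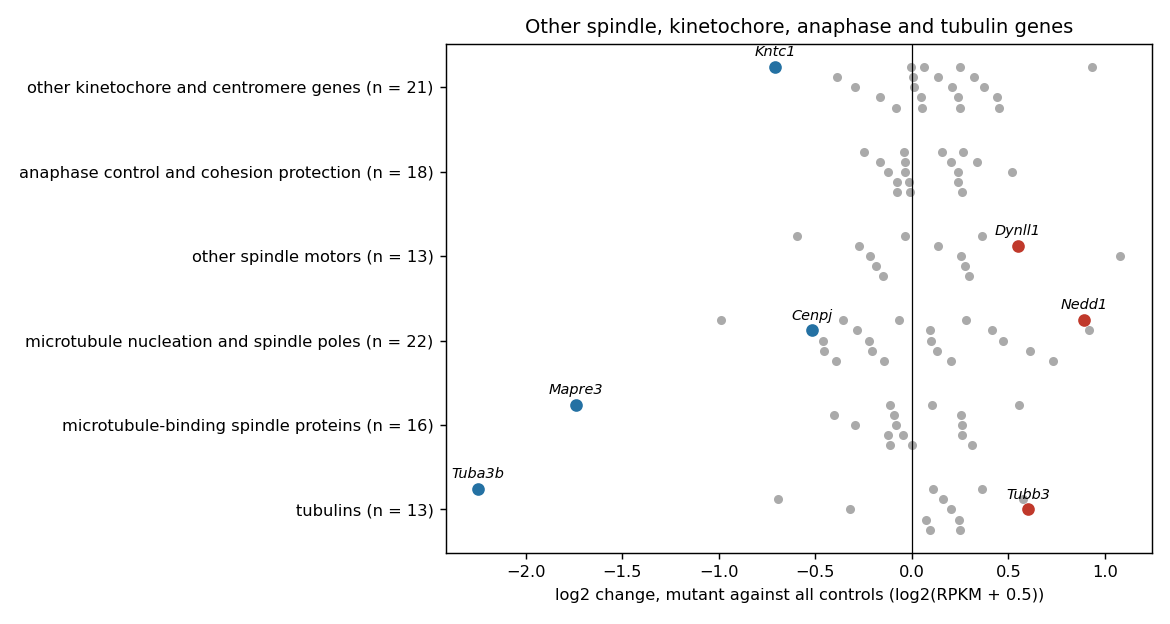
Change of log2(RPKM + 0.5), mutants against all controls, for the 103 tested other genes of the spindle, kinetochore, anaphase and tubulin lists, 1 point per gene. Red and blue points passed as higher and lower (limma, adjusted p below 0.05), namely Nedd1, Tubb3 and Dynll1 to the right and Kntc1, Cenpj, Mapre3 and Tuba3b to the left. The other 96 genes are grey and centre near zero.

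The 36 genes lie on 13 chromosomes, 10 of them on chromosome 2, among them Fam83d and Bub1b. Exon sequence is shared with another annotated gene for 10 of the 36, Cenpt included, whereas Fam83d, Spc24 (chromosome 9, 21755442 to 21760303, minus strand) and Nuf2 (chromosome 1, 169497934 to 169531464, minus strand) share none. The table lists 11 of the 36 under several transcripts, with 22 further rows, of which 21 kept the same ratio to the row used here within 20% over the libraries. The choice of transcript therefore leaves the differences between groups much as they are for these genes.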

How the data were processed

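RNA of 10 mice was amplified with the NuGen Ovation system and made into libraries by a TruSeq DNA protocol, which keeps no strand information, per the labels' protocols. The deposited values are RPKM for 34768 RefSeq transcripts. Tools named in the submitters' processing notes are STAR and bcl2fastq 1.8.3, with build mm10; the sources used here name no counting tool and no treatment of reads with several matches. Amplification adds spread between libraries and depends on length and GC content.

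The transcript with the highest mean stood for each symbol. Genes whose mean reached 0.5 RPKM (11338) were fitted on log2(RPKM + 0.5) with limma 3.58.1 in R 4.3.3 (empirical Bayes trend, Benjamini-Hochberg adjustment over all of them, threshold 0.05). The first comparison used 2 levels, mutant and control; comparisons with single control groups used 3 groups that share 1 spread. Fits were tested on simulated data with independent normal noise. Those data hold no deviation shared by a whole library, so they do not stand for all the spread seen here. Reads were estimated from the steps between low values, with transcript lengths for 91.7% of rows; 67.9% to 71.5% of low values then came within 0.1 of a whole read, so depths are approximate. Positions are from GENCODE M21. Given in every library are Setdb1, genes past a mutant comparison or with an unadjusted p below 0.05 against all controls, and the most abundant gene of each role; other pathway genes are named if past the threshold, or else the smallest p of a list. Fam83d's reported partners, Tuba3a, Foxl2 and the neighbours of Fam83d were added after values were seen. The 36 genes, the lists and the tests were chosen with earlier results of these data known. Alternatives covered pseudocount, scaling, filter, trend, weights, transcript choice, grouping, a replicate block and leaving out each library.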

Additional observations from a re-analysis of the deposited data

Results flagged for a closer look

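In the groups of 4 libraries, a single library stood apart from the rest for 8 of 72 combinations of gene and group, by the gap to its nearest neighbour as a share of the group's range (Dixon's 95% criterion). About 1 in 20 groups, or 3.6 of 72, would stand apart by chance.

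In 6 of the 8 it was f/+; Zp3-cre replicate 3 that was highest: Birc5 at 315 RPKM, Tacc3 at 300 RPKM, Nuf2 at 51.7 RPKM, Kif2c at 41.4 RPKM, Zwilch at 17.8 RPKM and Aurkb at 8.81 RPKM. The lowest library of its group was f/+; Zp3-cre replicate 2 for Incenp, at 29.3 RPKM. Fam83d had 0.284 RPKM in mutant replicate 3, the highest of the mutants and below all controls. The cause was not tested. Without f/+; Zp3-cre replicate 3 the log2 change of Birc5, mutants against all controls, was 0.068.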

How the results depend on the processing

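Of 21 alternative settings, Fam83d passed as lower in all, with log2 changes from -4.08 to -1.40. Spc24 kept its direction in all and passed in 11, Cenpt against f/- passed in 19 of 20 and Nuf2 against f/- in 7 of 20. Of the 36, those called higher against all controls, f/+; Zp3-cre and f/- numbered 0, 0 and 1 with quantile normalization, with no filter, with no trend and with the replicate block. With array weights they numbered 1, 2 and 0, and the lower ones 2, 2 and 1, with Ckap5 added; with 3 groups 2 were higher against all controls. Lower pathway genes numbered 1 with no filter or with the block and 2 with no trend, and array weights gave 9 higher and 7 lower. All lower genes numbered 150 with no filter and 140 with the block, and array weights gave 807 higher and 581 lower. Same-numbered libraries did not deviate together (correlations -0.0461 to 0.0308), and the replicate number was used only to name a library in the main fit. Whether same-numbered libraries share a day or a batch was not tested.

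On leaving out single libraries, all genes numbered 238 to 439 higher and 121 to 355 lower (lower: 167 and 164 on dropping mutant replicate 1 and 4; 127, 121, 159 and 140 on dropping f/+; Zp3-cre replicates 1 to 4), and pathway genes 2 to 6 and 1 to 4. Called genes in all numbered 226 to 905 against f/+; Zp3-cre, 277 to 1467 against f/- and 0 to 840 between the controls, with 1396, 52 and 0 under array weights and 383, 223 and 1 under the block. Of the 36, those higher numbered 0 to 1 against all controls, 0 to 1 against f/+; Zp3-cre, 1 to 4 against f/-, and 0 to 2 between the controls. Without mutant replicate 2 those lower against f/+; Zp3-cre were 2 in place of 1. Of 273 values of single genes under these settings, 18 reversed a change near 0 that never passed. Dsn1 was at -0.042 with median centring, -0.045 with quantile normalization, -0.058 with array weights and -0.073 to 0.10 without single libraries. Bub1b was at 0.031 with quantile normalization, 0.026 with 3 groups and -0.099 to 0.087 without single libraries. Array weights gave 0.037 for Birc5, -0.084 for Nuf2 and 0.037 for Tacc3, and single libraries left out gave -0.10 to 0.068 for Birc5 and -0.061 to 0.27 for Nuf2. The causes were not tested. Small pools and approximate depth limit genes near 0.109 RPKM, such as Fam83d in mutants.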
